A study of Mus musculus with 6 samples.

Results

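The transcripts described here are those of the mouse mitochondrial genome, taken as every gene of the deposited table whose name starts with mt-. There were 37 such genes among the 51826 in the table: 13 protein genes, 2 rRNA genes and 22 tRNA genes, which is the full set of genes that this genome is known to carry. They were measured by mRNA sequencing of brain tissue labelled as the paraventricular nucleus, a small nucleus of the hypothalamus with neuroendocrine and presympathetic neurons. The 3 KO libraries came from mice with a knockout of ADAM17, a membrane protease that sheds proteins from the cell surface, in glutamatergic neurons. KO 1 and KO 2 were male and KO F1 was female. The 3 WT libraries came from wildtype mice, WT 1 and WT 2 male and WT F1 female. The study asked how the knockout affects gene expression in this tissue. Age, strain, treatment, the Cre driver and whether tissue of several mice was pooled are not stated in the labels, so the p-values measure the spread between these libraries, which may be technical.

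The mitochondrial genome is a small circle that is transcribed from both strands into long RNAs, which are then processed into single transcripts. Most of its genes lie on the strand read as plus here, and tRNA genes stand between many of the mRNAs and rRNAs, so that cutting out the tRNAs releases the neighbouring RNAs. The mRNAs encode core subunits of complexes I, III, IV and V of oxidative phosphorylation, the rRNAs form the mitochondrial ribosome, and the tRNAs serve translation inside the organelle. Neurons hold many copies of this genome, and its transcripts take a large share of the RNA of brain tissue. Mitochondrial mRNAs and rRNAs can carry short poly(A) tails, while mature tRNAs are not polyadenylated, so a kit for mRNA as used here is not made to count tRNA; how much of the tRNA counts came from mature tRNA was not tested.

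In the deposited table all 37 genes had the same identifier, position and strand as in GENCODE M21 on GRCm38. They have no introns. Several overlap or have near-identical copies in the nuclear genome, and these stretches bear on which count a read enters. The end of mt-Atp8 and the start of mt-Atp6 are printed because both genes, subunits of ATP synthase, share 43 bases, and because a nuclear copy, Gm10925 on chromosome 1, has the same letters. The sequences are GENCODE M21 transcripts written 5′ to 3′ in the sense of the gene, and capitals mark the bases shared by mt-Atp8 and mt-Atp6. The first stretch is chrM:7907-7969 (plus strand), the next is chrM:7927-7989 (plus strand), and the copy is chr1:24614589-24614651 (minus strand).
mt-Atp8, last bases: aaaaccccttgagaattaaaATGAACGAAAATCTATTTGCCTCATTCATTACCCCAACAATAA
mt-Atp6, first bases: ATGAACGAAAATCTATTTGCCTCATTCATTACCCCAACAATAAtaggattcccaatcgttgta
Gm10925, first bases: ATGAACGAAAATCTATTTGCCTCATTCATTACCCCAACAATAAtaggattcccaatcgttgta

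A base that separates a gene from its copy was found for 2 of the 7 gene and copy pairs on chromosome 1, and these windows are printed with that base in capitals. Against mt-Co1, Gm29216 has the substitution A1066T, counted from 1 at the first base of mt-Co1. Against mt-Nd3, Gm28438 has the substitution T3C, counted from 1 at the first base of mt-Nd3. The windows are chrM:6390-6413 and chrM:9459-9481 on the plus strand, and chr1:24616165-24616188 and chr1:24613097-24613119 on the minus strand.
mt-Co1 window: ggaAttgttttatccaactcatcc
Gm29216 window: ggaTttgttttatccaactcatcc
mt-Nd3 window: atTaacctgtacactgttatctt
Gm28438 window: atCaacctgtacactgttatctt

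Of the tRNA genes, 8 that show the unlike patterns in KO 1 described further on are printed whole. A run of neighbours on the plus strand come first, namely mt-Th (histidine, chrM:11546-11612), mt-Ts2 (serine, chrM:11613-11671) and mt-Tl2 (leucine, chrM:11671-11741). Next are 4 minus-strand genes that lie side by side, mt-Ta (alanine, chrM:5018-5086), mt-Tn (asparagine, chrM:5089-5159), mt-Tc (cysteine, chrM:5192-5257) and mt-Ty (tyrosine, chrM:5260-5326). The last is mt-Te (glutamate, chrM:14071-14139, minus strand). No base is capitalised in this set.
mt-Th: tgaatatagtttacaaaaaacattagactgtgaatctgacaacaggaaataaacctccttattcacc
mt-Ts2: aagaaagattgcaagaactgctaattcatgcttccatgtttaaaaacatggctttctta
mt-Tl2: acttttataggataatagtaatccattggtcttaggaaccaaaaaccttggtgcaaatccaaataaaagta
mt-Ta: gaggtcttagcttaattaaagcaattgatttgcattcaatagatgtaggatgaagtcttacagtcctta
mt-Tn: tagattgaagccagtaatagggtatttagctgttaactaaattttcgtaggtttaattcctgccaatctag
mt-Tc: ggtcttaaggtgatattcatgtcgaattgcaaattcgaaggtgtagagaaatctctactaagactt
mt-Ty: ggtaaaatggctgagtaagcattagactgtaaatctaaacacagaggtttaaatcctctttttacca
mt-Te: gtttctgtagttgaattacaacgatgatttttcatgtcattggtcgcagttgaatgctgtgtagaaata

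Mitochondrial genes took 20.6% of all counts in KO 1, 9.2% in KO 2 and 7.8% in KO F1, against 7.26%, 7.22% and 7.64% in WT 1, WT 2 and WT F1. KO 1 stood far above the other 5 libraries, KO 2 stood above all 3 WT libraries by a smaller margin, and KO F1 was just above the highest of them. The mean share was 12.5 ± 7.04% in KO and 7.37 ± 0.232% in WT (SD, n = 3 each), a difference of 5.17 percentage points, which was 1.12 points without KO 1. Between the males the difference of means was 7.68 points, and between the females, with 1 library per genotype, it was 0.157 points. Per length, as TPM (a transcript level scaled to gene length and depth by the authors), mitochondrial transcripts made up 38.6%, 19.6% and 17.1% in KO 1, KO 2 and KO F1, against 16.2%, 16.1% and 16.9% in WT 1, WT 2 and WT F1. In bulk tissue, more cells rich in mitochondria and more mitochondrial RNA per cell cannot be told apart.

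**Figure D1:**
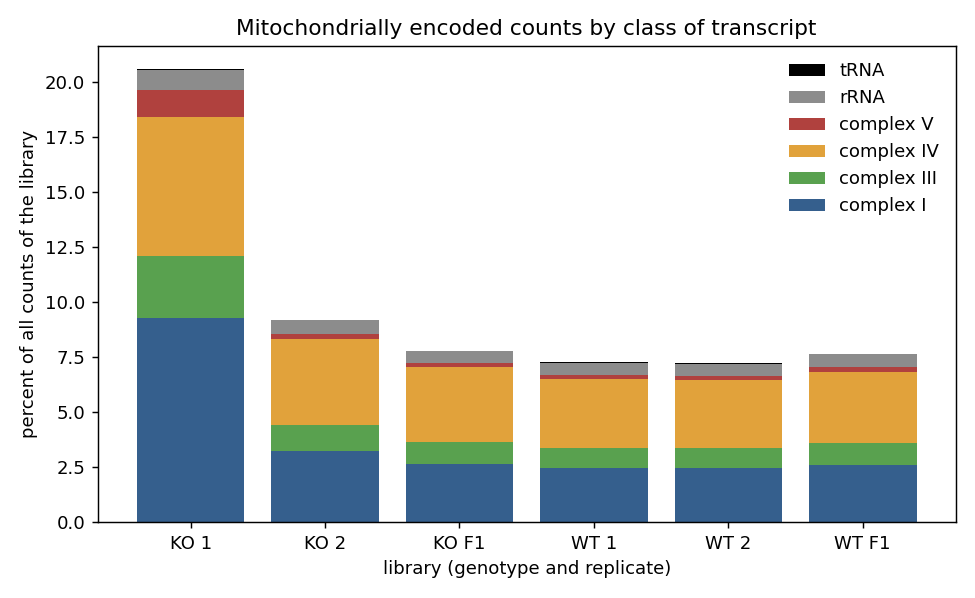
Mitochondrially encoded counts as percent of all counts (vertical axis) in each library, stacked by class of transcript. KO 1 reaches 20.6%, KO 2 9.2% and KO F1 7.8%, and the WT libraries lie between 7.22% and 7.64%.

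Total counts were between 35114426 (KO 1) and 54421330 (WT F1). Adam17 was at 15.3, 14.5 and 13.9 CPM (counts scaled to depth after TMM normalization, the trimmed mean of M values) in KO, against 17, 17.2 and 15.6 CPM in WT, with a log2 fold change of -0.19 and an adjusted p of 0.747 (edgeR), every KO library lying below every WT library as for 7.32% of all genes. Summed over 7 marker genes of the paraventricular nucleus the level was 86.6, 61.7 and 86.4 CPM in KO and 117, 63.6 and 130 CPM in WT, and none of the 7 was at 0 in every library. The 7 went in unlike directions, with 2 log2 fold changes above 0, Crh at 0.17 and Pou3f2 at 0.23. Pou3f2 alone gave 44.3, 25.1 and 33.5 CPM of the KO sums. Avp (mean 9.13 CPM in KO and 23.9 CPM in WT) and Oxt (9.13 and 19.4 CPM) had log2 fold changes of -1.36 and -1.17, with overlap between genotypes. Markers of cortical and hippocampal neurons, 6 genes, summed to between 1114 and 1446 CPM in KO and between 883 and 1186 CPM in WT, and those of thalamus, 3 genes, to 188, 55.6 and 74.4 CPM in KO and 120, 87.4 and 108 CPM in WT. KO 1 had the highest thalamic sum, although of its genes Prkcd was higher in WT 1 (79.4 CPM in KO 1 and 85.2 CPM in WT 1), and the lowest sum of 3 blood genes, at 118, 202 and 349 CPM in KO, against 219, 199 and 244 CPM in WT. Striatal markers, 4 genes, summed to 562, 647 and 708 CPM in KO and 741, 538 and 259 CPM in WT. Choroid plexus markers, 3 genes, summed to 389, 400 and 306 CPM in KO and 439, 702 and 151 CPM in WT. The part of such tissue differences in the mitochondrial values was not tested.

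No mitochondrial gene passed the adjusted threshold of 0.05 between KO and WT in edgeR's quasi-likelihood test with a sex term: 0 of 35 tested, the lowest adjusted p being 0.735. All genes together gave 1 call in 18956 (0.00528%), so few calls were made anywhere. At an unadjusted p under 0.05, 1 of the 35 was found, mt-Co1 (unadjusted p = 0.047 from the same edgeR fit), against 6.38% of all genes, and DESeq2 called 0 of the 35 against 0.403% of all genes. The fitted log2 fold change was above 0 for all 13 protein genes, against 49.4% of all genes, and ran from 0.09 for mt-Nd3 to 2.23 for mt-Atp6. Its median was 1.06 over the 13 and 0 over all genes. Without KO 1 the median of the 13 was 0.30 and 12 of 13 were above 0, the exception being mt-Nd3 at -0.02.

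By TMM-scaled CPM, every KO library lay above every WT library for 12 of the 13 protein genes, against 6.61% of all genes tested, and below for none of them. That count rests on the scaling. It was 6 of 13 with library totals (2.11% of all genes), with totals that leave out the mitochondrial counts (3.68% of all genes) and with TPM (0.823% of all genes), which were alternatives added after the data had been seen. The 6 were mt-Nd1, mt-Nd2, mt-Nd4l, mt-Nd4, mt-Co1 and mt-Cytb under each of these 3. The TMM factor was lowest in KO 1, at 0.82, and lay between 0.987 and 1.08 in the other libraries, so TMM raises KO 1 more than the others. All 13 protein genes were highest in KO 1 by TMM-scaled CPM, at 1.23 to 13.1 times the level in KO 2 (median 3.11), but by TPM mt-Co3 and mt-Nd3 were lowest in KO 1.

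The 7 mitochondrial genes of complex I encode subunits of NADH dehydrogenase, the entry point of electrons from NADH into the respiratory chain. mt-Nd4 (chrM:10167-11544), a subunit of its membrane arm, was at 28022, 7484 and 5788 CPM in KO 1, KO 2 and KO F1, against 5288, 5304 and 5326 CPM in WT 1, WT 2 and WT F1. All KO libraries were above the 3 WT libraries, which lay close together, while the KO libraries themselves spanned several fold. Its log2 fold change was 1.22 (SE 0.59, adjusted p = 0.738 in edgeR). mt-Nd1, mt-Nd2, mt-Nd4l, mt-Nd5 and mt-Nd6 had the same order of KO libraries, with log2 fold changes from 1.06 for mt-Nd1 to 1.24 for mt-Nd6. mt-Nd6 (chrM:13552-14070) is the only protein gene on the minus strand. It was at 6942, 1632 and 1342 CPM in KO, against 1222, 1203 and 1321 CPM in WT, so that KO F1 was close to the highest WT library. It overlaps mt-Nd5 by 14 bases on the opposite strand, and since the strand setting of the counting is not given, reads from either strand cannot be told apart here.

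mt-Nd3 (chrM:9459-9806), another membrane subunit of complex I, stood apart from the other 6. Its level was 297, 239 and 246 CPM in KO, against 253, 227 and 254 CPM in WT. The genotypes overlapped and the log2 fold change was 0.09 (SE 0.12, adjusted p = 0.867 in edgeR), which was negative, at -0.09, with library totals and, at -0.21, on the log2(TPM + 1) scale.

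Complex III has 1 mitochondrial gene, mt-Cytb (chrM:14145-15288), which encodes cytochrome b. Its level was 34530, 12007 and 9571 CPM in KO, against 8668, 8535 and 8855 CPM in WT. The genotypes did not overlap, and the log2 fold change was 1 (SE 0.47, adjusted p = 0.735 in edgeR).

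The complex IV genes encode the 3 core subunits of cytochrome c oxidase, the enzyme that passes electrons to oxygen. mt-Co1 (chrM:5328-6872), the catalytic subunit, was the most abundant mitochondrial transcript in every library by count. It was at 60223, 30762 and 25135 CPM in KO, against 22384, 22826 and 22858 CPM in WT, a log2 fold change of 0.72 (SE 0.30, adjusted p = 0.735 in edgeR). The genotypes did not overlap, and KO F1 was the nearest of the KO libraries to WT. mt-Co2 (chrM:7013-7696), which holds the copper site that receives electrons from cytochrome c, had a log2 fold change of 0.87 (SE 0.41) with the same order of the KO libraries. mt-Co3 (chrM:8607-9390), the third core subunit, was at 4789, 3905 and 3633 CPM in KO, against 3441, 3347 and 3522 CPM in WT. KO 1 was much less set apart for mt-Co3 than for mt-Co1 and mt-Co2, and the log2 fold change was 0.25 (SE 0.13, adjusted p = 0.744 in edgeR) by counts but -0.04 on the log2(TPM + 1) scale.

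The complex V genes encode subunits of the proton channel of ATP synthase and share an RNA. mt-Atp8 (chrM:7766-7969) was at 4712, 1513 and 1186 CPM in KO, against 1099, 1095 and 1155 CPM in WT, a log2 fold change of 1.03 (SE 0.51, adjusted p = 0.744 in edgeR). mt-Atp6 (chrM:7927-8607) was at 10231, 781 and 633 CPM in KO, against 608, 591 and 626 CPM in WT, a log2 fold change of 2.23 (SE 1.29, adjusted p = 0.751 in edgeR). For mt-Atp6 KO 1 was far above all other libraries, KO 2 was above the WT libraries by a much smaller margin and KO F1 just above them. Without KO 1 the log2 fold change of mt-Atp6 was 0.23 (SE 0.10).

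Both rRNAs lay closer to WT than most of the mRNAs. mt-Rnr1 (chrM:70-1024), the RNA of the small ribosomal subunit, was at 4857, 2742 and 2363 CPM in KO, against 2362, 2345 and 2299 CPM in WT, with a log2 fold change of 0.47 (SE 0.24, adjusted p = 0.741 in edgeR). mt-Rnr2 (chrM:1094-2675), that of the large subunit, was at 6075, 3480 and 3010 CPM in KO, against 3130, 3136 and 3128 CPM in WT, with a log2 fold change of 0.39 (SE 0.24, adjusted p = 0.754 in edgeR). KO F1 was the lowest of the 6 libraries for mt-Rnr2, so the genotypes overlapped there, and for mt-Rnr1 they did not overlap by a narrow margin.

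A fit with a term for the product of genotype and sex called 0 of the 35 mitochondrial genes tested (lowest adjusted p 0.771, edgeR) against 0.0739% of all genes, and 0 of the 35 had an unadjusted p under 0.05 against 7.42% of all genes. DESeq2 was not run for this term, which leaves 2 residual degrees of freedom and rests on 1 female library per genotype.

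**Figure D2:**
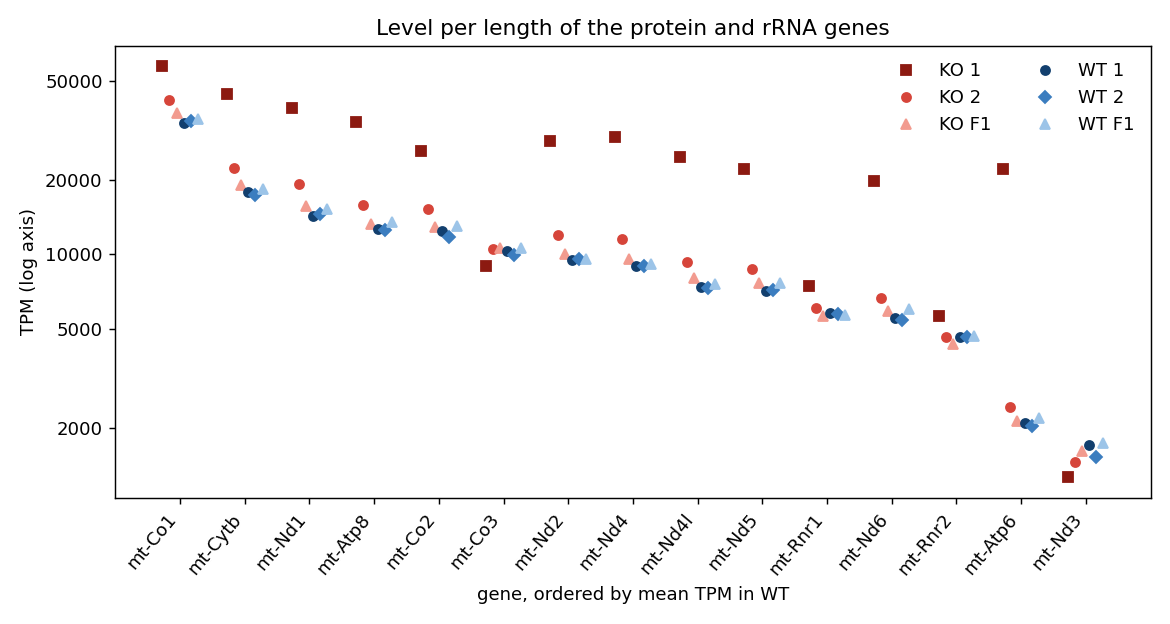
TPM of the 13 protein genes and 2 rRNA genes in each library (log axis), ordered from left to right by the mean of the 3 WT libraries. KO 1 (squares) lies above the other libraries for most genes, with mt-Atp6 at 22090 TPM in KO 1 and between 2025 and 2427 TPM in the others, and below them for mt-Co3 and mt-Nd3.

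Levels per length, as TPM, set the genes in an order. mt-Co1 was highest, at 57263, 42103 and 37084 TPM in KO 1, KO 2 and KO F1 and 34490 ± 554 TPM in WT (SD, n = 3), and mt-Cytb followed with 28541 ± 13781 TPM in KO and 17838 ± 478 TPM in WT (SD, n = 3 each). In the WT libraries the next were mt-Nd1, mt-Atp8, mt-Co2, mt-Co3, mt-Nd2, mt-Nd4, mt-Nd4l, mt-Nd5, mt-Rnr1, mt-Nd6, mt-Rnr2, mt-Atp6 and mt-Nd3. Neighbours in this order whose WT libraries overlapped were mt-Atp8 and mt-Co2, mt-Nd4l and mt-Nd5, and mt-Rnr1 and mt-Nd6. At the low end were mt-Atp6, at 2100 ± 78.4 TPM in WT, and mt-Nd3, at 1442 ± 177 TPM in KO and 1657 ± 113 TPM in WT (SD, n = 3 each). mt-Atp6 shares its RNA with mt-Atp8, which was at 12905 ± 492 TPM in WT, and its copy Gm10925 held the larger count of the pair in every library. The copy of mt-Nd3, Gm28438, also held the larger count in every library. Copies of mt-Co2, mt-Co3 and mt-Nd4l held at least 95.5% of their genes' counts. The order is that of the deposited TPM without the copies, and an order with the copies added was not computed.

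The mix of transcripts within the mitochondrial total was nearly fixed in 5 of the 6 libraries and different in KO 1. Complex I genes made up 45.0%, 35.2% and 34.1% of the mitochondrial counts in KO 1, KO 2 and KO F1, against 33.9%, 34.0% and 34.2% in WT 1, WT 2 and WT F1. Complex IV genes made up 30.7%, 42.5% and 43.3% in KO, against 42.8%, 42.9% and 42.7% in WT. KO 1 thus had more complex I and less complex IV RNA in its mitochondrial total than each of the other libraries, which lay within a few percentage points of each other. Complex III (mt-Cytb) made up 13.7%, 12.9% and 12.7% in KO, against 12.6%, 12.4% and 12.6% in WT. Complex V made up 5.94%, 2.46% and 2.41% in KO, against 2.48%, 2.44% and 2.52% in WT, and KO 1 alone was high. Counts of the nuclear copies, described further on, are not part of these shares, and shares with the copies added were not computed.

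The rRNAs took 4.35%, 6.68% and 7.13% of the mitochondrial counts in KO, against 7.98%, 7.94% and 7.69% in WT. Here KO 2 and KO F1 were also below all WT libraries, and the genotypes did not overlap. As a share of all counts the rRNAs were at 0.897%, 0.614% and 0.556% in KO, against 0.579%, 0.573% and 0.588% in WT, so on that scale KO 1 and KO 2 were above the WT libraries and KO F1 below them. The ratio of mt-Rnr1 to mt-Rnr2 counts was 0.799, 0.788 and 0.785 in KO, against 0.755, 0.748 and 0.735 in WT, with no overlap; this ratio was picked out after its values were seen and has no test.

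For single genes, the share within the mitochondrial counts did not overlap between genotypes in 19 of 37 genes: 5 were higher in every KO library (mt-Nd1, mt-Nd4, mt-Nd4l, mt-Cytb and mt-Tl1) and 14 lower (mt-Rnr1, mt-Rnr2, mt-Co3, mt-Nd3 and 10 tRNA genes). A share within the mitochondrial counts is not defined for other genes, so no figure over all genes stands beside this count. The shares add up to 100% in each library, so a gene with a high share lowers the others, and the 19 are not separate results. In exact two-sided permutation tests of each gene's mean log2 share, 3 libraries against 3, no p could fall below 0.1, so none could pass 0.05. Over the protein and rRNA genes, the highest share was at most 4.85 times the lowest with all 6 libraries, for mt-Atp6 (median 1.47). Without KO 1 it was at most 1.43 times the lowest, for mt-Nd3 (median 1.06). Both genes have a nuclear copy whose counts are not part of the share. KO 1 lay outside the range of the other 5 libraries for all 13 protein genes, both rRNA genes and 16 of the 22 tRNA genes.

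**Figure D3:**
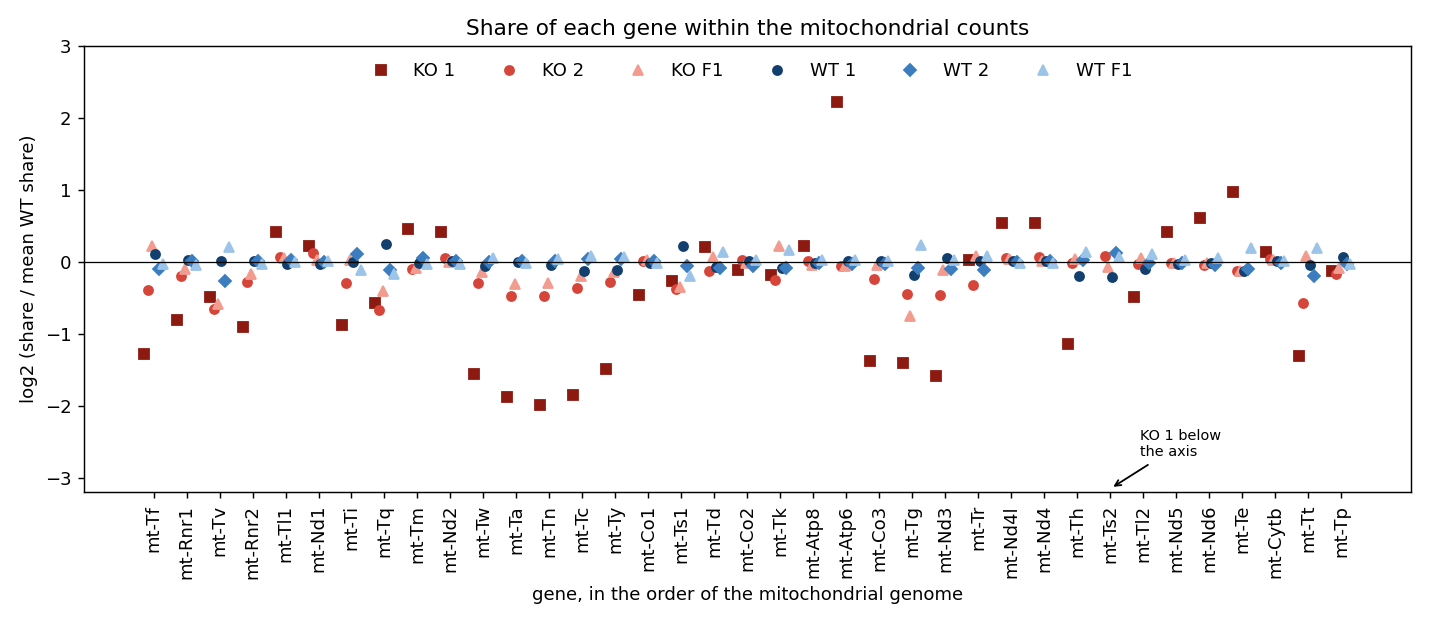
Share of each of the 37 genes within the mitochondrial counts of its library, as log2 of the ratio to the mean WT share (vertical axis), in the order of the genome. KO 1 (squares) lies away from the other libraries for most genes, upward for mt-Atp6 (4.07% in KO 1 and between 0.838% and 0.888% in the others) and downward for mt-Co3, mt-Nd3 and several tRNA genes, and its value for mt-Ts2 falls below the axis.

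Genes that stand next to each other on the circle had unlike values in KO 1. mt-Nd4l and mt-Nd4 share an RNA and overlap by 7 bases, and the ratio of their counts was 0.177, 0.175 and 0.181 in KO, against 0.177, 0.175 and 0.178 in WT, so KO 1 lay with the rest. The ratio of mt-Atp6 to mt-Atp8, which also share an RNA, was 2.17, 0.516 and 0.533 in KO, against 0.553, 0.540 and 0.543 in WT. The ratio of mt-Co3 to mt-Atp8, which are made from the same stretch of the precursor, was 1.02, 2.58 and 3.06 in KO, against 3.13, 3.06 and 3.05 in WT. In KO 1 the first of these was level with the other libraries, the next was high and the last was low. The mt-Atp6 count was 92.5% of that of its nuclear copy Gm10925 in KO 1 and between 18.2% and 19.2% in the other libraries. The ratio of mt-Atp6 to mt-Atp8 thus depends on how reads were divided between mt-Atp6 and Gm10925. Ratios with the copies added were not computed. Between distant genes, the ratio of mt-Nd4 to mt-Co1 was 0.465, 0.243 and 0.230 in KO, against 0.236, 0.232 and 0.233 in WT.

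Across the 13 protein genes, the log2 difference in share between KO 1 and KO 2 had a Pearson correlation of -0.10 with GC content, 0.01 with gene length and 0.09 with the start coordinate (Spearman -0.23, -0.14 and 0.29). With the 2 rRNA genes added (n = 15), the correlation with the start coordinate was 0.28 (Spearman 0.42). Across the 22 tRNA genes the Pearson correlation was 0.73 with gene length (Spearman 0.46), 0.09 with GC content and -0.14 with the start coordinate. The shortest tRNA gene, mt-Ts2, had the lowest share in KO 1, with a log2 difference of -8.86. The others lay between -1.51 (mt-Tn) and 1.10 (mt-Te), so mt-Ts2 alone weighs heavily in the 0.73. The correlation without mt-Ts2 was not computed. The points share the same pair of libraries, and the values are a description. The minus-strand genes, mt-Nd6 and 8 tRNA genes, made up 2.93%, 1.92% and 1.97% of the mitochondrial counts in KO, against 1.98%, 1.95% and 2.10% in WT, and KO 1 alone was high. Most of this sum was mt-Nd6, at 2.76%, 1.75% and 1.78% in KO, against 1.78%, 1.74% and 1.87% in WT. The minus-strand tRNA genes did not rise as a group. In KO 1 the share of mt-Te was the highest of all libraries, and those of mt-Ta, mt-Tn, mt-Tc and mt-Ty were the lowest. The shares of mt-Tq, mt-Ts1 and mt-Tp in KO 1 lay within the range of the other libraries.

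A row of 7 copies of mitochondrial sequence lies side by side on the minus strand of chromosome 1 and matched a mitochondrial gene over most or all of their length. Together they held 4.32%, 2.13% and 1.85% of all counts in KO, against 1.76%, 1.70% and 1.85% in WT. Added to the mitochondrial genes, the share of all counts was 24.9%, 11.3% and 9.65% in KO, against 9.02%, 8.92% and 9.49% in WT, and every KO library remained above every WT library. All 7 copies had log2 fold changes above 0, against 49.4% of all genes, from 0.12 for Gm28438 to 1.47 for Gm28439. Reads of a copy and its gene can hardly be told apart, so this is not a result separate from that of the mitochondrial genes. In edgeR 0 of 7 passed the adjusted threshold (lowest adjusted p 0.735), and 0 of 7 in DESeq2, against 0.403% of all genes in DESeq2. At an unadjusted p under 0.05 in edgeR there was 1 of the 7, against 6.38% of all genes.

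Gm28661, identical to mt-Co2 over 681 bases, had between 99.1% and 99.7% of the mt-Co2 count in every library. Gm28437, identical to mt-Co3 over 783 bases, had between 99.3% and 100% of the mt-Co3 count, and Gm10222, identical to mt-Nd4l over 294 bases, had between 95.5% and 98.9% of the mt-Nd4l count. These near-equal counts held in KO and in WT alike. Reads from a gene and an identical copy cannot be told apart by sequence, and no source used here says how the authors' counting divided them. The copy Gm28439 matches the first 876 of the 1378 bases of mt-Nd4 and had 53.9%, 42.7% and 40.6% of its count in KO, against 39.8%, 39.8% and 41.0% in WT.

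The pair that differed most between libraries was mt-Atp6 and Gm10925 (chr1:24613974-24614651), identical over 678 bases, whose shared first bases are printed above. The mt-Atp6 count was 92.5%, 18.7% and 18.2% of the Gm10925 count in KO, against 19.2%, 19% and 18.8% in WT. KO 1 alone had nearly equal counts for the pair, and the other 5 libraries kept a fixed proportion. When each gene's count was summed with its copy on chromosome 1, mt-Atp6 had a log2 fold change of 1.24 (SE 0.64) in place of 2.23 (SE 1.29), close to the 1.03 of mt-Atp8. The largest log2 fold change of a protein gene was then 1.30, for mt-Nd4, and none of the 13 passed the threshold.

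The copies that carry a mismatch were Gm29216 and Gm28438. Gm29216, which matches the last 483 bases of mt-Co1 except for A1066T, had 7.6%, 12.4% and 13.2% of the mt-Co1 count in KO, against 14.3%, 13.5% and 13.5% in WT. Gm28438, which matches mt-Nd3 over 345 bases except for T3C, had 116%, 113% and 113% of the mt-Nd3 count in KO, against 111%, 112% and 112% in WT. For both pairs KO 1 was at the edge of the range, low for the mt-Co1 copy and high for the mt-Nd3 copy.

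**Figure D4:**
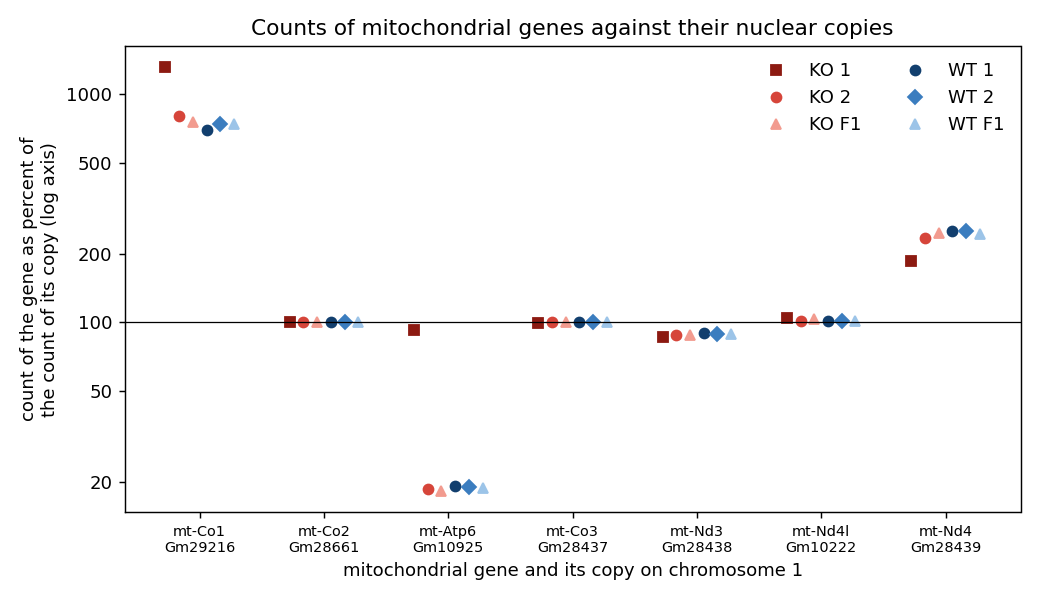
Count of each mitochondrial gene as percent of the count of its copy on chromosome 1 (log axis), in each library. mt-Atp6 is at 92.5% of Gm10925 in KO 1 and between 18.2% and 19.2% in the other 5 libraries, while the mt-Co2 and mt-Co3 pairs lie close to 100% in all 6.

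Of the 22 tRNA genes 20 were tested, and mt-Ts1 and mt-Tg, serine and glycine tRNAs with between 6 and 16 counts in each library, did not pass the filter on low counts. The 20 had a median log2 fold change of 0.41, with 16 above 0, against 49.4% of all genes. In edgeR 0 of the 20 passed the adjusted threshold (lowest adjusted p 0.735), and 0 in DESeq2, against 0.403% of all genes in DESeq2. At an unadjusted p under 0.05 in edgeR there were 0 of the 20, against 6.38% of all genes. Every KO library was above every WT library for 5 of the 22 by TMM-scaled CPM (6.61% of all genes tested). Under each of the 3 other scalings this held for only 1 of the 22, mt-Tl1. The share of all genes was 2.11% with library totals, 3.68% with totals that leave out the mitochondrial counts and 0.823% with TPM. Every KO library was below every WT library for 2 of the 22 with library totals (16.8% of all genes), for 2 with totals that leave out the mitochondrial counts (12.6%) and for 3 with TPM (21.1%), which is not above the share of all genes. The 5 with TMM scaling were mt-Tl1 (leucine, log2 fold change 1.16), mt-Td (aspartate, 1.02), mt-Tr (arginine, 0.90), mt-Tl2 (leucine, 0.70) and mt-Ti (isoleucine, 0.45). Without KO 1 the median of the 20 was 0.15.

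The tRNA genes fell into unlike patterns in KO 1. mt-Te, the glutamate tRNA next to mt-Nd6 on the minus strand, was at 279, 48.3 and 38.9 CPM in KO, against 35.6, 36.3 and 45.8 CPM in WT (log2 fold change 1.42, SE 0.85, adjusted p = 0.754 in edgeR). mt-Tl1, between mt-Rnr2 and mt-Nd1, was at 158, 46.1 and 37.0 CPM in KO, against 31.9, 33.3 and 33.4 CPM in WT (log2 fold change 1.16, SE 0.55). mt-Tm (methionine) was at 73.4, 18.6 and 15.1 CPM in KO, against 14.4, 15.2 and 14.7 CPM in WT (log2 fold change 1.11, SE 0.60). For these genes KO 1 was several times the next library, much as for the mRNAs beside them. mt-Tp (proline), mt-Tk (lysine), mt-Tq (glutamine) and mt-Tv (valine) were also highest in KO 1, with log2 fold changes of 0.79, 0.85, 0.39 and 0.37, and their genotypes overlapped.

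In contrast, the neighbours mt-Tw (tryptophan), mt-Ta, mt-Tn, mt-Tc and mt-Ty, which lie between mt-Nd2 and mt-Co1, were nearly level in all libraries. mt-Tn was at 30.9, 32.7 and 29.9 CPM in KO, against 32.5, 34.0 and 35.3 CPM in WT (log2 fold change -0.12, SE 0.10). mt-Tc was at 22.6, 23.5 and 21.3 CPM in KO, against 20.4, 23 and 24.2 CPM in WT (log2 fold change -0.01, SE 0.12). KO 1 lay within the range of the other libraries for mt-Ta, mt-Tn and mt-Tc and only a little above it for mt-Tw, at 5.87 CPM, and mt-Ty, at 20.7 CPM, while the flanking mRNAs mt-Nd2 and mt-Co1 were far higher in KO 1 than elsewhere. The log2 fold changes of mt-Ta, mt-Ty and mt-Tw were -0.08, 0.17 and 0.14, and those of mt-Ty and mt-Tw were negative with library totals and with TPM. Within the mitochondrial counts, mt-Tn had a share of 0.0123% in KO 1, 0.0351% in KO 2 and 0.0397% in KO F1, against 0.0472%, 0.0492% and 0.05% in WT 1, WT 2 and WT F1.

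mt-Ts2, the serine tRNA whose 59-base sequence is printed above and which is known for lacking a D arm, was nearly missing from KO 1. It had 1, 267 and 178 counts in KO, against 163, 194 and 264 counts in WT. Its neighbours in KO 1 were not low by count: mt-Th had 364, 458 and 351 counts in KO, against 301, 331 and 508 counts in WT, and mt-Tl2 had 328, 259 and 204 counts in KO, against 185, 185 and 285 counts in WT. By TMM-scaled CPM both neighbours were highest in KO 1, at 12.6 CPM for mt-Th and 11.4 CPM for mt-Tl2. As a share of mitochondrial counts both were lowest in KO 1, at 0.458 (mt-Th) and 0.729 (mt-Tl2) times the value in KO 2. On this share scale, mt-Ts2 in KO 1 was 0.00216 times its value in KO 2. The 95% exact binomial interval of this ratio, from the counts 1 and 267, runs from 5.44e-05 to 0.0121. It covers counting error only. The fitted log2 fold change was -0.28 (SE 1.05) and 0.30 without KO 1. mt-Ts2 is the shortest of the tRNA genes. The deposited counts look like estimates rounded up to whole numbers, so the value of 1 may not stand for a whole read.

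Of the remaining tRNA genes, mt-Th had a log2 fold change of 0.44, mt-Tf (phenylalanine) of 0.33 and mt-Tt (threonine) of 0.23, with overlap between genotypes in each. All tRNA genes together made up 0.288%, 0.287% and 0.306% of the mitochondrial counts in KO, against 0.320%, 0.332% and 0.348% in WT, with no overlap. KO 1 was not set apart on this sum, since mt-Te and mt-Tl1 were high in it and mt-Tn, mt-Ta and mt-Tc were low.

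**Figure D5:**
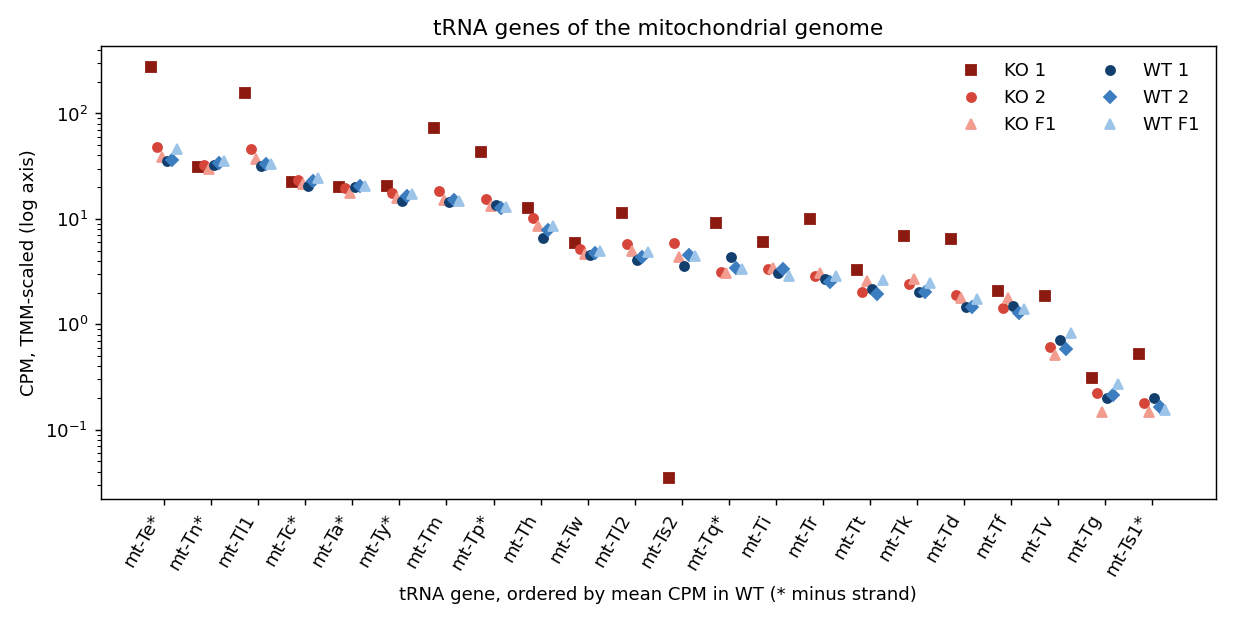
TMM-scaled CPM of the 22 tRNA genes in each library (log axis), ordered by the mean of the 3 WT libraries, with minus-strand genes marked by an asterisk. KO 1 (squares) stands above the rest for mt-Te at 279 CPM and mt-Tl1 at 158 CPM and is level with the rest for mt-Tn, mt-Tc and mt-Ta. It is far below the rest for mt-Ts2 at 0.0347 CPM, a value from 1 count.

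Nuclear genes that transcribe, process, stabilise, degrade or replicate the mitochondrial genome were not called either. Of 39 such genes, all tested, 0 passed the adjusted threshold in edgeR (lowest adjusted p 0.735) and 0 in DESeq2, against 0.403% of all genes in DESeq2. At an unadjusted p under 0.05 in edgeR there were 2 of the 39, against 6.38% of all genes. Log2 fold changes were above 0 for 18 of the 39, against 49.4% of all genes, and the median was -0.03. Hsd17b10, a subunit of the enzyme that cuts the 5′ ends of mitochondrial tRNAs, was at 16.4, 15 and 16.5 CPM in KO, against 21.3, 21.3 and 21 CPM in WT, a log2 fold change of -0.41 (SE 0.11, adjusted p = 0.735 in edgeR). Every KO library was below every WT library for this gene, as for 3 of the 39 and for 7.32% of all genes. Fastkd1, of a family of mitochondrial RNA-binding proteins, was at 9.37, 9.27 and 12.3 CPM in KO, against 12.5, 12.5 and 14.2 CPM in WT (log2 fold change -0.35, SE 0.12, adjusted p = 0.735 in edgeR).

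Neither gene set KO 1 apart from KO 2. Rexo2, an exonuclease of short RNAs, was at 54.9, 43.9 and 38.8 CPM in KO, against 38.8, 39.6 and 36.5 CPM in WT (log2 fold change 0.25, SE 0.13, adjusted p = 0.738 in edgeR), and on the log2(TPM + 1) scale its value was -0.08. Ppargc1a, a coactivator of genes for mitochondrial biogenesis, was at 105, 62.7 and 60.3 CPM in KO, against 56.0, 57.3 and 61.7 CPM in WT (log2 fold change 0.37, SE 0.22, adjusted p = 0.747 in edgeR). KO 1 was the highest library for both genes, and the genotypes overlapped.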

How the data were processed

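RNA from tissue labelled as mouse paraventricular nucleus was sequenced in 3 KO and 3 WT libraries, grouped by the genotype and sex in the labels. A Tri-zol extraction and an mRNA library kit are named in the labels' protocols. The submitters' processing notes list bedtools 2.26.0, Trimmomatic 0.36 and FastQC 0.11.2. What aligned and counted the reads, with which strand setting and on which build, is not given in the sources used here.

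Each gene and library has a count, a TPM and an FPKM, all computed by the authors and named in the file headers. The deposited TPM served for levels per length and in alternatives. No result uses the deposited FPKM. For all 22 or 23 mitochondrial genes under 10000 counts in a library, the deposited count equalled TPM times the gene length less 1 base times a constant of the library, rounded up to a whole number (tolerance 0.01 counts). The counts thus look like estimates rounded up to whole numbers, and were used as deposited. Depth was between 35114426 and 54421330 counts. At this depth 3 counts, the floor for a gene with none, are between 0.0551 and 0.0854 CPM by library totals without TMM scaling (counting error only). The 1 count of mt-Ts2 in KO 1 is below this floor.

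The test was edgeR 4.0.16 in R 4.3.3 (filterByExpr by genotype, TMM, robust quasi-likelihood fit with sex and genotype), fitted to 18956 genes with Benjamini-Hochberg adjustment over all of them and a threshold of 0.05. It was tested on simulated data. Fold changes are log2, KO minus WT. CPM values are TMM-scaled, except for the floor given above. Alternatives were other scalings and filters, DESeq2 1.42.0, limma 3.58.1 on log2(TPM + 1) and log2(TPM + 0.1), males only, no sex term, a block for replicate number, counts summed with nuclear copies, and each library left out. Copies were found with BLAST 2.17.0 against GENCODE M21 transcripts, from 90% identity over 100 bases. Overlap under other scalings was added later.

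By rule, all mitochondrial genes were named, tRNA genes that failed the filter as a group, with Adam17, the copies on chromosome 1 and the 4 machinery genes of smallest p. The mitochondrial genes, the machinery list and the tests were chosen with earlier results of these data known.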

Additional observations from a re-analysis of the deposited data

How the results depend on the processing

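No mitochondrial gene and no gene of the machinery list passed the threshold under any alternative run. The count over all genes did depend on the setting: 1 as reported, 4 without a filter on low counts, 75 with DESeq2, 3 without a sex term, 0 with the replicate number as a block, 18 in males only, 4 and 5 with limma on log2(TPM + 1) and log2(TPM + 0.1), and between 0 and 20 when each library was left out (7 without KO 1, 15 without KO F1, 20 without WT F1 and 0 without each of the others). Same-numbered KO and WT libraries did not deviate together (correlations of -0.04, 0.02 and 0.01). No pairing by number was thus seen, but with 3 libraries per genotype these values cannot exclude one. The block left the 13 protein genes above 0 (0.08 to 1.33).

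The median log2 fold change of the protein genes was 1.06 and ran from 0.30 (without KO 1) to 1.52 when a library was left out, and from 0.63 to 1.53 under the other settings. The mitochondrial share of all counts kept its direction, with a difference of between 1.12 (without KO 1) and 7.54 points when a library was left out. The median of all genes was -0.17 with library totals and -0.24 and -0.29 on the 2 TPM scales. Relative to it all 13 protein genes stayed above under these 3 settings.

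Some log2 fold changes changed sign, and the cause was not tested. With library totals, mt-Tw was at -0.03, mt-Nd3 at -0.09 and mt-Ty at -0.01. On log2(TPM + 1) and log2(TPM + 0.1) the values were -0.04 and -0.04 for mt-Tv, -0.15 and -0.16 for mt-Tw, -0.02 and -0.02 for mt-Tq, -0.08 and -0.08 for mt-Tt, -0.21 and -0.21 for mt-Nd3, -0.04 and -0.04 for mt-Co3, -0.13 and -0.13 for mt-Ty, and -0.08 and -0.08 for Rexo2. In males only mt-Tc was at 0.09. With each library left out, the log2 fold changes ran from -0.35 to 0.88 for mt-Tv, -2.06 to 0.30 for mt-Ts2, -0.08 to 0.09 for mt-Tc, -0.23 to 0.67 for mt-Tq, -0.02 to 0.38 for mt-Tt and -0.02 to 0.16 for mt-Nd3. In all, 28 of 702 log2 fold changes of single genes under an alternative changed sign.

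Of the log2 differences in share within the mitochondrial counts, 15 of 294 changed sign, all with a library left out. Their ranges were -0.09 to 0.19 for mt-Tm, -0.22 to 0.02 for mt-Co1, -0.03 to 0.15 for mt-Td, -0.06 to 0.01 for mt-Co2, -0.21 to 0.02 for mt-Tk, -0.01 to 0.12 for mt-Atp8, -0.06 to 1.08 for mt-Atp6, -0.14 to 0.05 for mt-Tr, -0.57 to 0.03 for mt-Th, -4.42 to 0.01 for mt-Ts2, -0.26 to 0.01 for mt-Tl2, -0.01 to 0.20 for mt-Nd5, -0.02 to 0.30 for mt-Nd6 and -0.11 to 0.44 for mt-Te. Protein genes had at least 8563 counts in each library, while tRNA genes with few counts, mt-Ts1 and mt-Tg among them, are known only roughly.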

Other observations

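Copies of mitochondrial sequence with more differences held few counts. Gm13340 on chromosome 2, 97.6% identical to mt-Co1 over 1545 bases, had 1758, 1912 and 1618 counts in KO, against 1997, 1797 and 2284 counts in WT. That was 0.101%, 0.139% and 0.158% of the mt-Co1 count in KO, against 0.197%, 0.185% and 0.170% in WT. Gm13341 beside it, 95.9% identical to mt-Co2, had 0.523%, 1.12% and 1.37% of the mt-Co2 count in KO, against 1.55%, 1.42% and 1.45% in WT. For both copies the percentage was lowest in KO 1 and below all WT libraries in all 3 KO libraries. Other such copies had at most 490 counts in a library. Among them Gm11407 and Gm4076, which resemble mt-Nd5, had their highest count in KO 1. Gm11407 had 31, 20 and 21 counts in KO, against 25, 25 and 28 counts in WT. Gm4076 had 29, 21 and 16 counts in KO, against 13, 23 and 26 counts in WT. The counts of these copies are not scaled to depth, and KO 1 had the fewest counts in total, 35114426. Which library had the highest level of Gm13340 or Gm13341 thus cannot be read from them, and scaled levels were not computed. These copies were looked at after the data had been seen, and the values have no test.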
